A study of Homo sapiens with 12 samples.

Results

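The 10 genes described here are the TEAD transcription factors TEAD1, TEAD2, TEAD3 and TEAD4, the coactivators YAP1 and WWTR1 (TAZ), the kinases LATS1 and LATS2, and the target genes CCN1 and CCN2, taken by symbol from a table of read counts for 59087 features. The set was chosen by the TEAD2 counts, which were near 0 in knockout lines 1 and 2, so the levels of TEAD2 in knockout and wild-type libraries are given as a description, with no test. Messenger RNA was measured in SH-SY5Y, an established cell line from a human neuroblastoma, which resembles young cells of the sympathetic nervous system. The groups were FMR1-KO cells in heavy medium, WT cells in heavy medium, FMR1-KO cells in light medium and WT cells in light medium, with 3 libraries each. FMRP, the product of FMR1, binds messenger RNAs and controls how they are translated. All cells were kept for 2 weeks in a SILAC form of DMEM:F-12 with dialyzed serum, in which lysine and arginine carried heavy isotopes or were of the ordinary, light kind. The knockout libraries of each medium were 3 independently made lines, numbered 1 to 3, so each line gave 2 libraries, and within any 1 line the loss of FMR1 cannot be told apart from other changes made or acquired with it. Nothing in the labels says that the WT libraries came from separate cultures, so p-values measure the spread between these libraries, which may be technical.

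In the Hippo pathway a cascade of kinases ending in LATS1 and LATS2 phosphorylates the coactivators YAP1 and WWTR1 and keeps them out of the nucleus. Coactivators that escape this bind the TEAD proteins, which hold the DNA-binding domain, and switch on genes for growth and for the cell surface and matrix, CCN1 and CCN2 among them. TEAD proteins also bind cofactors of the VGLL family, some of which compete with YAP1. Neurons are known for little YAP1, and neural progenitors and glia for more.

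The start-site windows of TEAD2 and CCN2 are shown because TEAD2 was the member with the widest spread between lines and CCN2 is a textbook target with clustered TEAD sites. The windows are from RefSeq on GRCh38.p14, 250 bases before to 50 after a start, read along the gene's minus strand from 5′ to 3′. TEAD2 has 2 of them, the upstream one at chr19:49362367-49362666 and the other at chr19:49361468-49361767, and CCN2 has 1 at chr6:131951323-131951622. Capitals mark GGAATG, a core of the TEAD site, which was searched on both strands (CATTCC on the other).
TEAD2 upstream start: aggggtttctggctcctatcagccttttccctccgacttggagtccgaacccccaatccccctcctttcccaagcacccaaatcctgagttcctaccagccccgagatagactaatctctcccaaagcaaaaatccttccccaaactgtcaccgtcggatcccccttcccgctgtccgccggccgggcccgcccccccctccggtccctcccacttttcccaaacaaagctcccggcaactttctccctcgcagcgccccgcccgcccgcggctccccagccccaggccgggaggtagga
TEAD2 downstream start: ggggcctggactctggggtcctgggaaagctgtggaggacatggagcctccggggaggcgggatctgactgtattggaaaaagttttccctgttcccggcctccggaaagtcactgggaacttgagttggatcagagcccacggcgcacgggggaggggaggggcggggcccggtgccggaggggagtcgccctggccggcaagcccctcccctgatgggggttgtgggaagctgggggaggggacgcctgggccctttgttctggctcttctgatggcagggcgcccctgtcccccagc
CCN2: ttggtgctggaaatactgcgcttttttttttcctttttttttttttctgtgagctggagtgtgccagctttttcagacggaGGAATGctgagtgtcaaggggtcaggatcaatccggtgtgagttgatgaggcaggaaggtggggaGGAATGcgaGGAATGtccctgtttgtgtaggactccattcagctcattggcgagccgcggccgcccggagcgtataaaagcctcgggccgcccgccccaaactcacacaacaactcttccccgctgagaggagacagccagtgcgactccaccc
GGAATG was found 3 times in the CCN2 window, each time on the gene's strand, and these letters were not in either TEAD2 window. Of 35116 RefSeq windows of 300 bases, 14.0% held the motif at least once and 0.128% held it 3 or more times. Windows were matched for 7 of the 10 genes, and the windows of 3 of them, YAP1, LATS2 and CCN2, held the motif.

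Libraries summed to between 25935152 and 40257027 counts. Levels below are CPM, counts per 1000000 in the TMM-scaled library. The targeted gene was reduced but not absent: FMR1 was at 22.4, 12.8 and 7.19 CPM in knockout lines 1, 2 and 3 in heavy medium and at 11.4, 11.5 and 9.05 CPM in light medium, against 35.9 to 42.0 CPM in the 6 WT libraries. It fell in every line, with log2 fold changes of -1.18 in line 1, -1.64 in line 2 and -2.20 in line 3 (edgeR quasi-likelihood test, adjusted p = 0.00092, 6.94e-05 and 0.00016). One library stood apart from its line. The line 1 heavy library lay about midway between the line 1 light library and the WT heavy libraries: FMR1 was 40.7% of the way from line 1 light to WT, and the 95 genes at least 4-fold lower in line 1 light than in WT light were a median of 47.8% of the way (interquartile range 44.1 to 51.3%). The 115 genes at least 4-fold higher in line 1 light were a median of 49.9% of the way (interquartile range 43.1 to 53.5%). Without this library FMR1 in line 1 gave -1.72 (edgeR adjusted p = 2.62e-09). The cause was not tested, and line 1 results below are given with this library and then without it. Markers of the sympathetic lineage were all detected, 9 of 9, and summed to 3515 to 5437 CPM in knockout and 5410 to 5887 CPM in WT libraries. Of the markers of other cell types, PRRX1 and MEOX2 (mesenchymal), SOX10 and GFAP (glial) and DCN (fibroblast) were at 0 in all 12 libraries. Members of the same lists that were expressed in every library included THY1 (102 to 121 CPM) and PDGFRB (59.5 to 86.3 CPM) of the fibroblast list. From the mesenchymal list they included VIM (19.5 to 70.0 CPM) and FN1 (8.37 to 48.7 CPM).

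TEAD2 separated the lines. In heavy medium TEAD2 was at 33.1, 0.930 and 73.2 CPM in knockout lines 1, 2 and 3, against 65.3, 72.4 and 65.9 CPM in the WT libraries. In light medium it was at 0.254, 1.5 and 78.9 CPM in lines 1, 2 and 3, against 74.1, 68.7 and 64.1 CPM in WT. Line 2 in both media and line 1 in light medium were close to 0, line 1 in heavy medium was about midway, and line 3 was above every WT library of its own medium.

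The counts behind the low values were small. TEAD2 had 9 reads in line 1 light, and 33 and 39 reads in line 2 heavy and light, against 1932 to 2781 reads in WT libraries. TEAD2 in line 1 light was 0.369% of the WT light mean, a ratio of WT to knockout of 271 (95% counting interval 143 to 593). Line 2 was at 1.37% of WT in heavy medium (ratio 73.0, interval 52.0 to 106) and at 2.18% in light medium (ratio 45.8, interval 33.5 to 64.5). Line 1 heavy was at 48.7% of the WT heavy mean (ratio 2.05, interval 1.94 to 2.18), and lay 48.5% of the way from line 1 light to WT heavy. These intervals cover counting error only. TEAD2 in line 3 was 108% of the WT mean in heavy medium and 114% in light medium. In bulk RNA, fewer cells with TEAD2 and less TEAD2 RNA per cell cannot be told apart. The glial markers, 4 of 6 with reads, moved with the same lines: they summed to 3.75 to 6.02 CPM in line 1, 5.19 to 5.90 CPM in line 2 and 2.01 to 2.50 CPM in line 3, against 2.03 to 2.84 CPM in WT. The fibroblast markers, 5 of 6 with reads, summed to 163 to 190 CPM in knockout and 188 to 210 CPM in WT libraries, and the mesenchymal ones, 6 of 8, to 67.2 to 83.8 CPM in knockout and 70.3 to 77.0 CPM in WT. The mesenchymal sum joined opposite moves. VIM was at 48.9 and 70.0 CPM in line 1 heavy and light, 59.6 and 59.7 in line 2 and 19.5 to 23.5 in WT. FN1 was at 24.6 and 9.36 CPM in line 1, 8.37 and 9.49 in line 2 and 42.2 to 48.7 in WT. In edgeR, 2 of the 6 rose and 2 fell in line 1 (15.4% and 12.8% of all genes). In line 2, 2 rose and 3 fell (22.9% and 20.1%), and in line 3, 1 rose and 0 fell (3.27% and 1.73%). Of 5 fibroblast markers tested, 0 rose and 4 fell in line 1 and in line 2, and 0 rose and 1 fell in line 3, beside the same shares of all genes. COL1A1 was at 1.05 and 0.452 CPM in line 1 heavy and light and 0.507 and 0.579 in line 2. In line 3 it was at 1.87 and 2.21 CPM, against 1.84 to 2.64 in WT. THY1 was at 103 to 116 CPM in knockout and 102 to 121 in WT. Of 3 glial markers tested, 2 rose in line 1, 2 in line 2 and 0 in line 3, and 0 fell. The part of these cell types in the TEAD2 levels was not tested.

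TEAD2 in line 3 against WT is given as a description too. The log2 fold change was 0.16 (SE 0.73, 95% interval -1.27 to 1.59, edgeR quasi-likelihood fit). The fit estimates 1 spread from all libraries, those of lines 1 and 2 included, and without the line 1 heavy library the change was 0.15 (SE 0.071). The SE thus depended on a library that chose the genes, so the fit cannot test line 3 on its own.

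**Figure D1:**
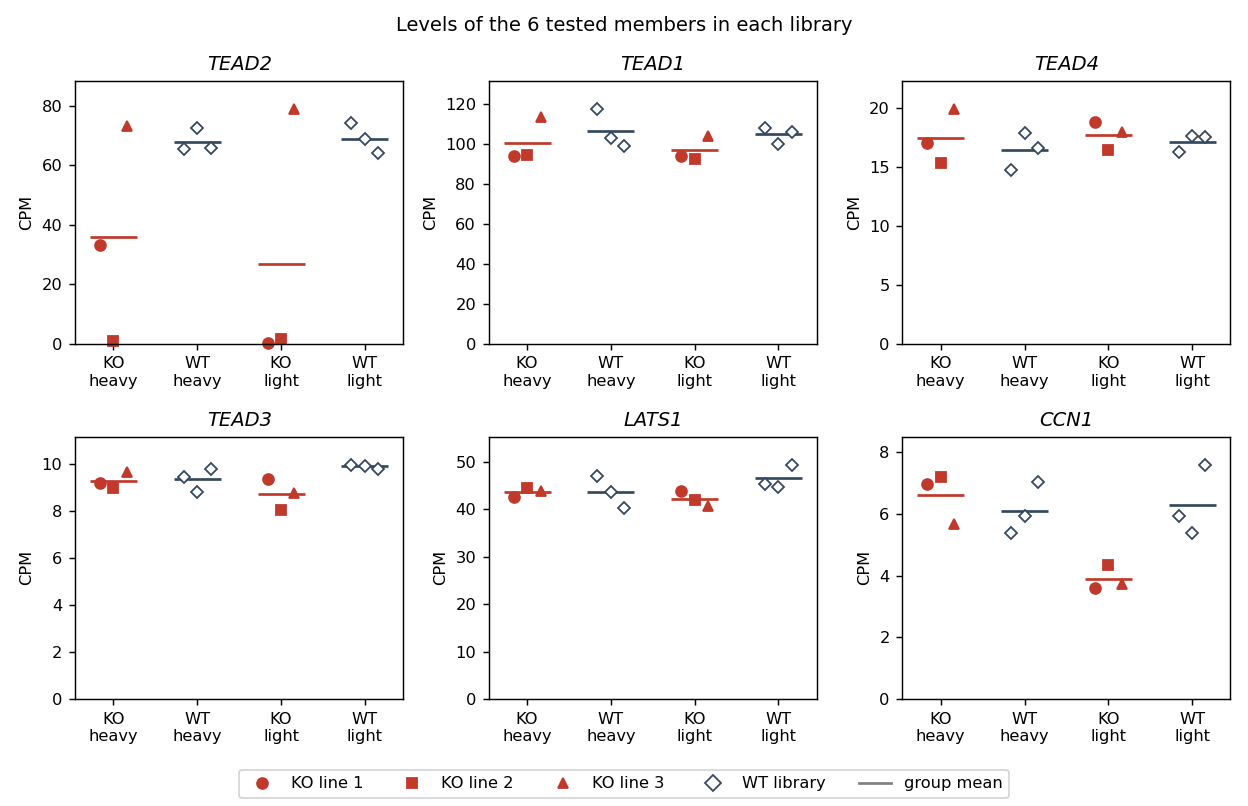
CPM (y axis, linear, from 0) of the 6 genes with enough reads to test, in knockout (red; circle line 1, square line 2, triangle line 3) and WT (open diamonds) libraries of each medium, with group means as bars. TEAD2 spans 0.254 to 78.9 CPM among knockout libraries while the 6 WT libraries sit between 64.1 and 74.1 CPM, and CCN1 in light medium is at 3.62 to 4.36 CPM in knockout and 5.38 to 7.60 CPM in WT.

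The other TEAD genes varied far less between libraries. TEAD1 was at 93.9, 94.3 and 113 CPM in lines 1, 2 and 3 in heavy medium against 117, 103 and 98.8 CPM in WT, and at 94.1, 92.4 and 104 CPM in light medium against 108, 100 and 106 CPM in WT. All 4 libraries of lines 1 and 2 were below every WT library, as was the case for 14.1% of all genes tested. TEAD1 fell in line 2, where its change in log2 was -0.18 (SE 0.063, edgeR adjusted p = 0.0308). Line 1 gave -0.17 (SE 0.063, edgeR adjusted p = 0.0557) and line 3 gave 0.042 (SE 0.062, edgeR adjusted p = 0.780).

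The TEAD1 call in line 2 was lost when either library of that line was left out (edgeR adjusted p = 0.185 without heavy and 0.115 without light). Without line 1 heavy, line 1 gave -0.14 (edgeR adjusted p = 0.242). A difference of TEAD1 among the 3 lines did not pass (edgeR F test, range of line means 0.22 on the log2 scale, adjusted p = 0.111). Over both media TEAD1 gave -0.10 (SE 0.059, edgeR adjusted p = 0.240), and it passed without line 3 heavy (log2 -0.15, adjusted p = 0.0463).

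TEAD3 was at 9.18, 8.99 and 9.67 CPM in lines 1, 2 and 3 in heavy medium against 9.47, 8.83 and 9.79 CPM in WT, and at 9.36, 8.06 and 8.79 CPM in light medium against 9.98, 9.93 and 9.81 CPM in WT. In light medium every knockout library was below every WT library, as for 14.3% of all genes tested, and in heavy medium the groups overlapped. TEAD3 did not pass in light medium (log2 -0.19, SE 0.11, edgeR adjusted p = 0.299) or over both media (log2 -0.097, 95% interval -0.23 to 0.036, edgeR adjusted p = 0.308).

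TEAD4 was at 17.0, 15.3 and 19.9 CPM in lines 1, 2 and 3 in heavy medium against 14.8, 17.9 and 16.6 CPM in WT, and at 18.8, 16.4 and 18.0 CPM in light medium against 16.2, 17.6 and 17.6 CPM in WT. The groups overlapped in both media. Line 3, the highest, gave a log2 change of 0.17 (95% interval 0.0025 to 0.34, edgeR adjusted p = 0.301), and line 2, the lowest, gave -0.083 (95% interval -0.26 to 0.093, edgeR adjusted p = 0.490). TEAD3 and TEAD4 share 7 stretches of 50 bases in their annotated exons, whereas TEAD2 shares none of its 3244 with the other TEAD genes.

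**Figure D2:**
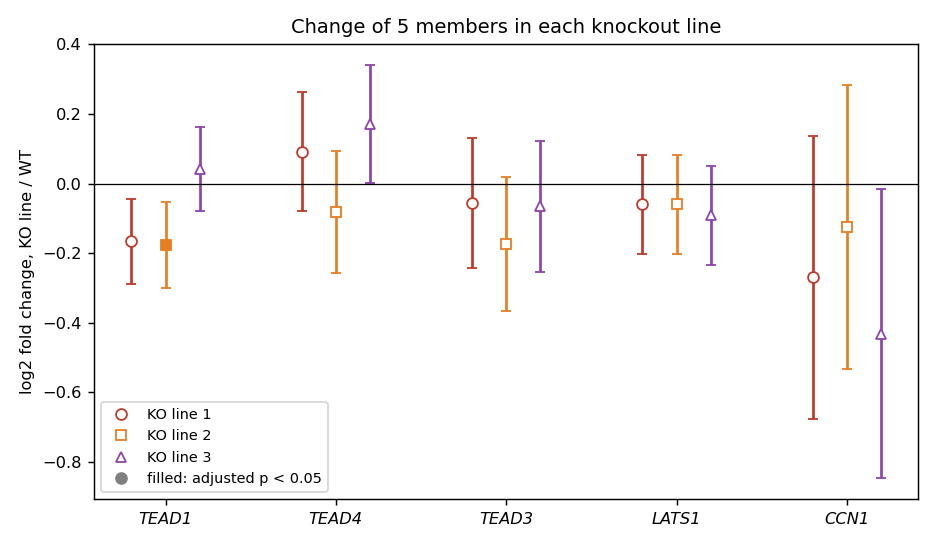
Log2 fold change of knockout line over WT (y axis) for the 5 tested genes other than TEAD2, by line, with 95% intervals from the edgeR fit. The filled symbol, TEAD1 in line 2 at -0.18, is the value that passed an adjusted p of 0.05.

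Dividing by the length of the annotated exons puts the genes on 1 scale. In WT libraries TEAD2 was at 23.0 ± 1.36 CPM per kb (SD, n = 6), TEAD1 at 10.3 ± 0.66, TEAD4 at 7.39 ± 0.52, LATS1 at 5.21 ± 0.35, TEAD3 at 3.16 ± 0.14 and CCN1 at 2.53 ± 0.37 CPM per kb. Neighbours in this order did not overlap over the 6 WT libraries, except TEAD3 (2.90 to 3.28 CPM per kb) and CCN1 (2.19 to 3.10 CPM per kb). WWTR1 followed at 0.010 ± 0.0092 CPM per kb, and YAP1, LATS2 and CCN2 were at or near 0.

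TEAD2 made up 52.4 ± 1.56% (SD, n = 6) of the length-scaled RNA of the 4 TEAD genes in WT. The share was 36.1% in line 1 heavy, 0.415% in line 1 light, 1.63% in line 2 heavy, 2.61% in line 2 light, 51.7% in line 3 heavy and 55.9% in line 3 light. The summed level of the 4 genes was 30.8 and 20.6 CPM per kb in line 1 heavy and light, 19.2 and 19.4 in line 2, and 47.5 and 47.4 in line 3, against 42.3 to 45.8 CPM per kb in WT libraries. Without TEAD2 the sum averaged 20.1 CPM per kb in line 1, 18.9 in line 2 and 21.9 in line 3, against 20.8 ± 0.38 in WT (SD, n = 6). The sum of the remaining 3 genes was thus not higher in lines 1 and 2 than in WT.

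**Figure D3:**
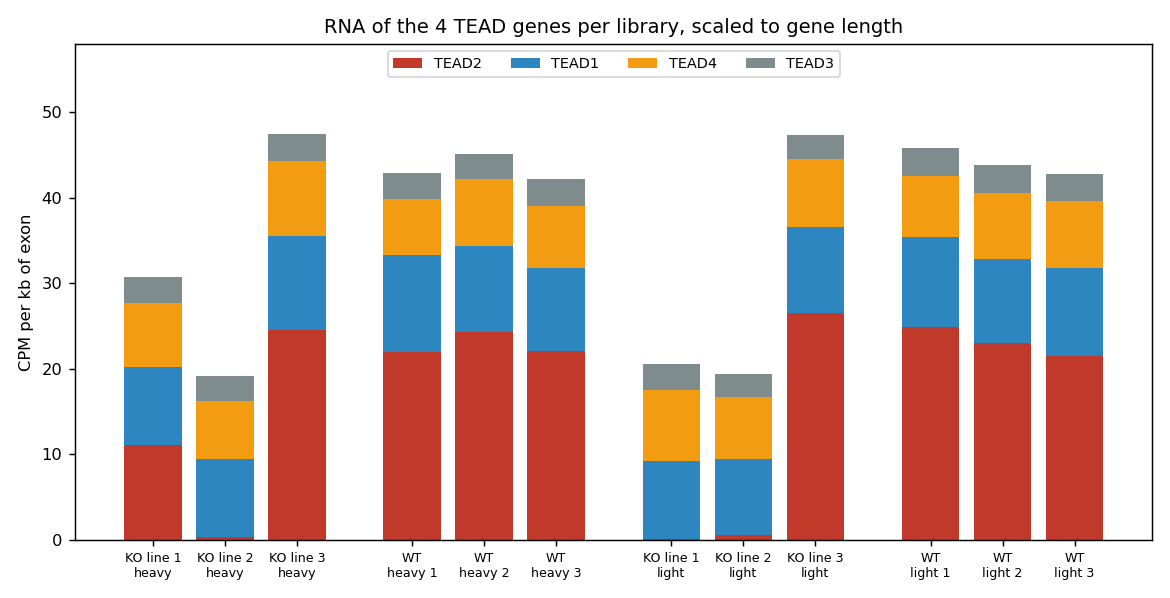
CPM per kb of exon (y axis, linear) of TEAD2, TEAD1, TEAD4 and TEAD3, stacked, in each of the 12 libraries. The TEAD2 part is 0.085 to 0.505 CPM per kb in line 1 light and line 2, 11.1 in line 1 heavy, and 21.5 to 26.5 in line 3 and WT, while the other parts differ little in height.

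The coactivators were barely detected in either genotype. YAP1 had 2 reads in all, 1 in line 3 heavy and 1 in a WT heavy library. WWTR1 had 31 reads over 10 of the 12 libraries, with 0 to 7 reads a library in both genotypes and a highest level of 0.230 CPM. Neither was tested, and at this depth no difference between knockout and WT was detectable for them.

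Of the kinases, LATS1 was expressed and LATS2 had no read. LATS1 was at 42.5, 44.4 and 43.8 CPM in lines 1, 2 and 3 in heavy medium against 46.9, 43.6 and 40.4 CPM in WT, and at 43.9, 41.9 and 40.7 CPM in light medium against 45.4, 44.7 and 49.4 CPM in WT. In light medium every knockout library was below every WT library, as for 14.3% of all genes tested, and in heavy medium they overlapped. LATS1 did not pass in light medium (log2 -0.14, SE 0.068, edgeR adjusted p = 0.225), nor over both media (log2 -0.070, 95% interval -0.17 to 0.030, edgeR adjusted p = 0.329). For LATS2, 0 of 396374498 counts allows a level of up to 0.00757 CPM over all libraries, counting error only.

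The target gene CCN1 (CYR61, a secreted matrix protein) was low in knockout cells in light medium. It was at 6.98, 7.19 and 5.69 CPM in lines 1, 2 and 3 in heavy medium against 5.38, 5.93 and 7.04 CPM in WT. In light medium it was at 3.62, 4.36 and 3.73 CPM in lines 1, 2 and 3 against 5.94, 5.38 and 7.60 CPM in WT. The groups overlapped in heavy medium and did not in light medium, where every knockout library was below every WT library (14.3% of all genes). Every light knockout library was also below every heavy one, as for 2.32% of genes.

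Knockout cells averaged 3.90 ± 0.40 CPM of CCN1 and WT cells 6.31 ± 1.15 CPM in light medium (SD, n = 3 each). The log2 fold change was -0.70 (SE 0.17), which did not pass over all genes (edgeR adjusted p = 0.0770, where 1.44% of genes passed, 0.906% higher and 0.537% lower). It passed in DESeq2 (adjusted p = 0.0136, with 1718 of all genes called) and with no filter on low counts (edgeR adjusted p = 0.0182, 1351 genes). Without line 3 light it passed too (edgeR adjusted p = 0.00455, 6240 genes), and the main fit called 231 genes. It did not pass with RLE size factors, with the replicate block or without any other 1 library (highest edgeR adjusted p 0.284). Heavy medium gave 0.11 (SE 0.16, edgeR adjusted p = 0.749). The test of the difference between the media gave 0.81 (SE 0.23) and did not pass over all genes (edgeR adjusted p = 1.0). There 0% of genes passed in edgeR, 0 in DESeq2, and 149 (0.892%) had an unadjusted p under 0.05, CCN1 among them. CCN2 (CTGF) had 1 read, in line 1 heavy, and was not tested.

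In all, 6 of the 10 genes had enough reads to be tested, and the other 4, YAP1, WWTR1, LATS2 and CCN2, did not. Leaving TEAD2 aside, 0 of 5 passed over both media, where 24.8% of all 16704 genes passed, and 0 of 5 in heavy medium (0.112% of all genes) or light medium (1.44%). In line 1, 0 passed (28.2% of all genes), in line 2, 1 passed (43.0%), in line 3, 0 passed (5.0%), and 0 differed among the lines (12.7%). At an unadjusted p under 0.05 there was 1 in light medium (CCN1, where 25.2% of all genes had such a p), 1 in line 1 (TEAD1, 38.5%), 1 in line 2 (TEAD1, 50.1%) and 1 among lines (TEAD1, 26.9%). There were 0 over both media (39.2%), in heavy medium (17.9%) and in line 3 (18.5%). In DESeq2, CCN1 passed in light medium.

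Heavy against light medium passed for none of the 5 genes other than TEAD2, and for 0% of all genes (edgeR, with 1099 or 6.58% at an unadjusted p under 0.05, and 14 in DESeq2). TEAD2 over all libraries is left out here, since the fit holds the lines that chose the genes, and the WT libraries alone gave a log2 difference of -0.018 (edgeR adjusted p = 0.997). CCN1 gave 0.35 (SE 0.15, edgeR adjusted p = 0.713), and -0.026 in the WT libraries alone. The largest of the other 4 was -0.046 for TEAD4 (95% interval -0.17 to 0.076, edgeR adjusted p = 0.919).

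The rest of the pathway was read from a list of 38 other Hippo genes, all of them expressed and tested. Over both media 2 rose and 9 fell (28.9%), beside 15.0% and 9.78% of all genes, and their median log2 fold change was -0.047 against 0.0029 for all genes. In line 1, 3 rose and 13 fell (15.4% and 12.8% of all genes), in line 2, 7 rose and 14 fell (22.9% and 20.1%), and in line 3, 0 passed (3.27% and 1.73%). Line 3 had 8 at an unadjusted p under 0.05, and 2 in DESeq2 (MAP4K4 and STRN3). Within a medium edgeR called 0, with 7 in heavy and 11 in light medium at an unadjusted p under 0.05, whereas DESeq2 called MAP4K4 in heavy medium and 7 genes in light medium. Without line 1 heavy, 11 passed over both media (3788 of all genes, against 4135 with all libraries) and 21 in line 2 (7456, against 7180). In line 3, 3 then passed (MAP4K4, STRN3 and FRMD6, all lower, with 1269 of all genes, against 836). Without line 1 light, 3 passed in line 3 (1264 of all genes). Without line 3 light, 17 passed over both media (5907 of all genes). Leaving out a library of line 1 or line 2 leaves that line 1 library, and fewer of the 38 and of all genes then passed in it. On counts summed per line, 0 of the 38 passed over both media, where 272 of all genes did, and 12 had an unadjusted p under 0.05. The summed level of the adrenergic markers was 4160 to 4612 CPM in line 1, 3515 to 3738 in line 2 and 4981 to 5437 in line 3, against 5410 to 5887 CPM in WT, and its part in these counts was not tested.

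Of the upstream kinases of LATS, MAP4K4 fell and TNIK and MAP4K2 rose in lines 1 and 2. TAOK3 and MAP4K5 passed in line 2 only (log2 0.26 and 0.17, edgeR adjusted p = 0.0193 and 0.04996). STK3, STK4, TAOK1, TAOK2, MAP4K1, MAP4K3 and MINK1 passed in no line (lowest edgeR adjusted p 0.247). MAP4K4 was at 287 and 249 CPM in line 1 heavy and light, 239 and 237 in line 2 and 311 and 305 in line 3, against 330 to 369 CPM in WT. All 6 knockout libraries were below every WT library, as for 3.99% of all genes tested. MAP4K4 changed in log2 by -0.38 (SE 0.055) in line 1 and -0.54 (SE 0.055) in line 2 (edgeR adjusted p = 4.64e-05 and 3.17e-07), line 3 gave -0.17 (adjusted p = 0.0764), and the lines differed (edgeR F test, adjusted p = 0.0235). MAP4K4 in line 1 was at -0.46 without line 1 heavy (adjusted p = 4.29e-05). TNIK was at 14.9 and 22.0 CPM in line 1 heavy and light, 23.4 and 21.5 in line 2 and 13.6 and 11.4 in line 3, against 11.0 to 13.5 CPM in WT. It rose by 0.62 (SE 0.12) in line 1 and 0.92 (SE 0.12) in line 2 on the log2 scale (edgeR adjusted p = 0.00076 and 7.09e-06), line 3 gave 0.066 (adjusted p = 0.837), and the difference among lines did not pass (adjusted p = 0.0544). Without line 1 heavy, TNIK in line 1 gave 0.91 (edgeR adjusted p = 4.38e-06) and the difference among lines passed (adjusted p = 2.08e-09). The line 1 call of TNIK was lost without line 1 light (edgeR adjusted p = 0.176), and its call over both media (log2 0.57, adjusted p = 0.0281) was kept without line 1 heavy, either line 3 library or WT light 3, and lost without any of the other 8 libraries (highest adjusted p 0.0696).

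MAP4K2, a kinase of the same family, is named after its values were seen. It was at 22.9 and 24.3 CPM in line 1 heavy and light, 27.8 and 25.4 in line 2 and 21.9 and 22.7 in line 3, against 17.4 to 20.9 CPM in WT, and all 6 knockout libraries were above every WT library, as for 6.54% of all genes. MAP4K2 rose by 0.28 in line 1 and 0.46 in line 2 on the log2 scale (edgeR adjusted p = 0.0117 and 0.00013), and line 3 gave 0.20 (adjusted p = 0.181). Its call over both media (log2 0.32, edgeR adjusted p = 0.0070) held without any 1 of the 12 libraries (highest adjusted p 0.0211) and was lost on counts summed per line. Its line 1 call was lost without line 1 light (adjusted p = 0.174), and line 1 gave 0.31 without line 1 heavy (adjusted p = 0.0354).

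Among proteins that bind LATS or the coactivators, AJUBA, a LIM protein that holds LATS back at cell junctions, had the largest fall. AJUBA was at 3.58 and 1.95 CPM in line 1 heavy and light, 0.677 and 0.502 in line 2 and 5.05 and 4.87 in line 3, against 4.83 to 6.25 CPM in WT. Lines 1 and 2 were below every WT library, as for 14.1% of all genes tested, and line 3 was within the WT range. The log2 fold change of AJUBA was -1.09 (SE 0.17) in line 1 and -3.29 (SE 0.23) in line 2 (edgeR adjusted p = 8.05e-05 and 2.64e-09), line 3 gave -0.23 (adjusted p = 0.456), and the lines differed (edgeR F test, adjusted p = 0.000385). Without line 1 heavy, the change in line 1 was -1.53 (adjusted p = 7.56e-06). AJUBA in line 1 heavy was 40.2% of the way from line 1 light to WT.

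TP53BP2 (ASPP2), a scaffold that binds YAP1, was at 118 and 105 CPM in line 1 heavy and light, 98.3 and 105 in line 2 and 136 and 127 in line 3, against 133 to 148 CPM in WT. In log2, the change of TP53BP2 was -0.32 (SE 0.059) in line 1 and -0.45 (SE 0.060) in line 2 (edgeR adjusted p = 0.00053 and 7.60e-06), line 3 gave -0.077 (adjusted p = 0.523), and the lines differed (adjusted p = 0.0252). The line 1 call was lost without line 1 light (edgeR adjusted p = 0.0510), and line 1 gave -0.38 without line 1 heavy (adjusted p = 0.00107).

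At the cell surface, FRMD6, a FERM protein upstream of the kinases, was at 5.64 and 3.99 CPM in line 1 heavy and light, 3.81 and 3.82 in line 2 and 6.49 and 5.46 in line 3, against 7.18 to 8.18 CPM in WT. All 6 knockout libraries were below every WT library, as for 3.99% of all genes. FRMD6 changed in log2 by -0.69 (SE 0.13) in line 1 and -1.02 (SE 0.14) in line 2 (edgeR adjusted p = 0.00059 and 9.03e-06), line 3 gave -0.38 (adjusted p = 0.103), and the difference among lines did not pass (adjusted p = 0.120). DCHS1, the protocadherin ligand of FAT4, was at 209 and 196 CPM in line 1 heavy and light, 179 and 183 in line 2 and 224 and 215 in line 3, against 231 to 253 CPM in WT. The log2 fold change of DCHS1 was -0.24 (SE 0.051) in line 1 and -0.41 (SE 0.051) in line 2 (edgeR adjusted p = 0.00133 and 4.04e-06), and line 3 gave -0.13 (adjusted p = 0.172). Without line 1 light the line 1 calls of FRMD6 and DCHS1 were lost (edgeR adjusted p = 0.0682 and 0.0885). They gave -0.94 and -0.29 in line 1 without line 1 heavy (edgeR adjusted p = 0.000153 and 0.00249), and the difference of FRMD6 among lines passed (adjusted p = 0.0204).

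SIKE1, a subunit of the STRIPAK phosphatase complex, is named here after its values were seen, since its change had opposite signs in lines 1 and 2. It was at 27.4 and 30.3 CPM in line 1 heavy and light, 45.0 and 46.3 in line 2 and 46.0 and 42.5 in line 3, against 35.2 to 42.4 CPM in WT. In log2, the change of SIKE1 was -0.42 in line 1 and 0.24 in line 2 (edgeR adjusted p = 0.00059 and 0.0137), and line 1 gave -0.35 without line 1 heavy (adjusted p = 0.0169). The line 2 call was lost without either line 2 library (highest edgeR adjusted p 0.117). Of the 38 genes 7 differed among lines in the edgeR F test (18.4%, beside 12.7% of all genes): AJUBA, MAP4K4, TP53BP2, LIMD1, WWC2, STK38L and SIKE1, which was picked for its opposite signs. Leaving out any 1 knockout library leaves 1 library in its line. The count of the 38 rose without either line 1 library and fell without any library of line 2 or line 3, as did the count over all genes.

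**Figure D4:**
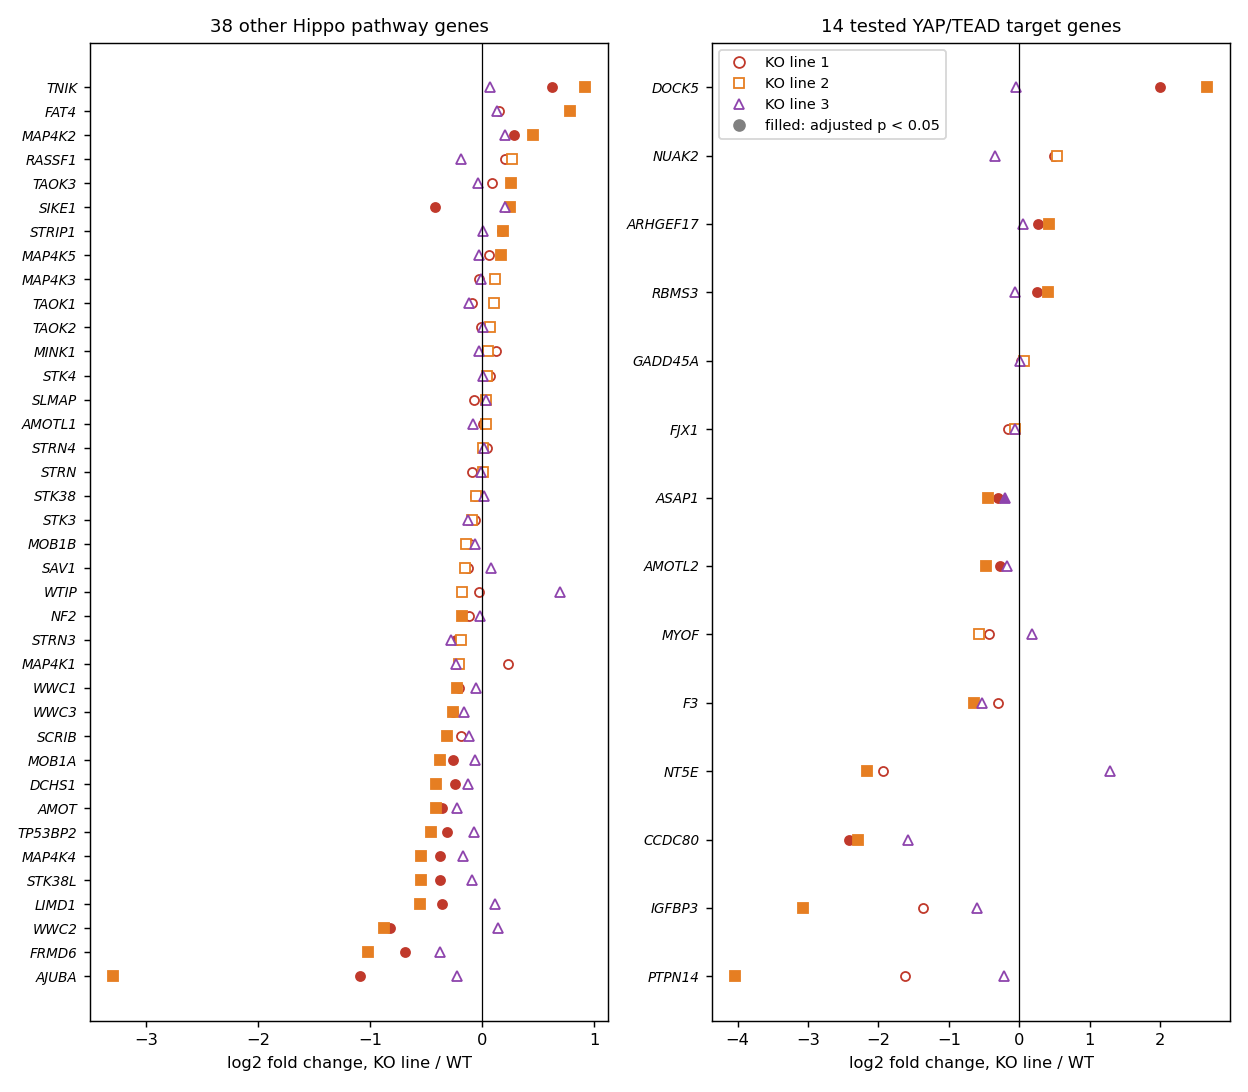
Log2 fold change of knockout line over WT (x axis) for 38 other Hippo genes (left) and 14 tested YAP/TEAD target genes (right), ordered by line 2, with filled symbols where the edgeR adjusted p was under 0.05. AJUBA is at -1.09 in line 1 and -3.29 in line 2, DOCK5 at 1.99 and 2.66, and 1 triangle, ASAP1 in line 3 at -0.20, is filled.

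A list of 19 further target genes of YAP and TEAD held 14 genes with enough reads, and those not tested were at most 0.423 CPM in any library. Since a gene that is high in 1 group passes the filter on low counts more easily, counts over the tested ones do not stand for the list. Over both media 2 rose and 4 fell (15.0% and 9.78% of all genes), in line 1, 3 rose and 3 fell (15.4% and 12.8%), in line 2, 3 rose and 7 fell (22.9% and 20.1%), and in line 3, 0 rose and 1 fell (3.27% and 1.73%). Within a medium edgeR called 0 of 12 targets in heavy medium and 1 of 10, ASAP1, in light medium, and 0 in either with the replicate block. With no filter on low counts it called CCDC80 in heavy medium and CCDC80, AMOTL2 and ASAP1 in light medium, and DESeq2 called DOCK5 in heavy medium and AMOTL2, DOCK5 and ASAP1 in light medium. The median log2 fold change of the 14 was -0.17 over both media, against 0.0029 for all genes. Over both media 5 passed without line 1 heavy (3788 of all genes, against 4135 with all libraries). There 3 passed without line 2 light (2632 of all genes) and 9 without line 3 light (5907 of all genes). In line 1, more targets passed without line 1 heavy and fewer without line 1 light, each leaving it 1 library. Fewer of all genes passed in line 1 in both cases. On counts summed per line, 1 passed, CCDC80. Those that passed in line 2 and are not described further were F3, PTPN14, IGFBP3 and NT5E. PTPN14 had 7 reads in line 1, 1 in line 2 and 18 in line 3, against 62 in the 6 WT libraries.

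DOCK5, an exchange factor for the GTPase Rac, rose the most. It was at 4.04 and 6.08 CPM in line 1 heavy and light, 8.37 and 7.45 in line 2 and 1.30 and 1.14 in line 3, against 0.981 to 1.58 CPM in WT. It rose by 1.99 (SE 0.17) in line 1 and by 2.66 (SE 0.16) in line 2 on the log2 scale (edgeR adjusted p = 6.38e-08 and 3.11e-10), line 3 gave -0.051 (adjusted p = 0.931), and the lines differed (edgeR F test, adjusted p = 0.00032). Its call over both media (log2 1.91, adjusted p = 0.0197) was lost without line 2 light (adjusted p = 0.0514). DOCK5 in line 1 gave 2.23 without line 1 heavy (adjusted p = 1.94e-08).

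ASAP1, an Arf GTPase-activating protein, was lower in all lines. It was at 117 and 109 CPM in line 1 heavy and light, 104 and 101 in line 2 and 125 and 118 in line 3, against 130 to 148 CPM in WT. Every knockout library was thus below every WT library, as for 3.99% of all genes tested. ASAP1 changed in log2 by -0.30 (SE 0.056) in line 1, -0.44 (SE 0.057) in line 2 and -0.20 (SE 0.056) in line 3 (edgeR adjusted p = 0.00047, 4.89e-06 and 0.0443). The line 3 call was lost without either line 3 library, line 2 heavy, WT heavy 2 or any WT light library (highest edgeR adjusted p 0.225). In line 1 ASAP1 was at -0.35 without line 1 heavy (edgeR adjusted p = 0.00139).

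ARHGEF17 was at 66.4 and 66.6 CPM in line 1 heavy and light, 78.2 and 70.7 in line 2 and 55.5 and 59.9 in line 3, against 50.8 to 59.8 CPM in WT. It rose by 0.26 in line 1 and 0.42 in line 2 on the log2 scale (edgeR adjusted p = 0.0067 and 4.69e-05). RBMS3, an RNA-binding protein, was at 137 and 165 CPM in line 1 heavy and light, 166 and 171 in line 2 and 128 and 117 in line 3, against 113 to 140 CPM in WT. It rose by 0.25 in line 1 and 0.40 in line 2 on the log2 scale (edgeR adjusted p = 0.0223 and 0.00038). Both differed among lines (edgeR F test, adjusted p = 0.0458 for ARHGEF17 and 0.0186 for RBMS3).

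AMOTL2, an angiomotin relative that binds YAP1, was at 22.1 and 18.9 CPM in line 1 heavy and light, 19.1 and 16.6 in line 2 and 22.8 and 21.1 in line 3, against 22.0 to 25.7 CPM in WT. The log2 fold change of AMOTL2 was -0.27 in line 1 and -0.47 in line 2 (edgeR adjusted p = 0.0205 and 0.00026). CCDC80, a secreted matrix protein, had 6 and 1 reads in line 1 heavy and light, 7 and 0 in line 2 and 4 and 8 in line 3, against 24, 10 and 24 reads in WT heavy and 18, 19 and 13 in WT light libraries. Its log2 fold change over both media was -2.06 (SE 0.42, edgeR adjusted p = 0.0049). Without line 1 light, the line 1 calls of ARHGEF17, RBMS3, AMOTL2 and CCDC80 were lost (edgeR adjusted p = 0.0815, 0.555, 0.404 and 0.137), and without line 2 light that of CCDC80 in line 2 (0.0726). Without line 1 heavy, line 1 gave 0.26 for ARHGEF17, 0.38 for RBMS3 and -0.38 for AMOTL2 (edgeR adjusted p = 0.0424, 0.00272 and 0.0161), and CCDC80 passed (0.00996). The call of ARHGEF17 over both media (adjusted p = 0.0252) was lost without line 1 light, either line 2 library, or WT heavy 1, heavy 2, light 1 or light 3 (highest adjusted p 0.0663).

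Of 6 cofactors that bind TEAD proteins, VGLL1, VGLL2, VGLL3 and FAM181A had no read in any library. VGLL4, a repressor that competes with YAP1 for TEAD, was at 130 and 119 CPM in line 1 heavy and light, 113 and 117 in line 2 and 140 and 133 in line 3, against 136 to 151 CPM in WT. In log2, the change of VGLL4 was -0.20 (SE 0.054) in line 1 and -0.32 (SE 0.055) in line 2 (edgeR adjusted p = 0.0086 and 0.00013), line 3 gave -0.072 (adjusted p = 0.513), and the line 1 call was lost without line 1 light (adjusted p = 0.283). VGLL4 in line 1 was at -0.26 without line 1 heavy (edgeR adjusted p = 0.00941). FAM181B, a TEAD-binding protein of neural cells, was at 3.34 and 3.39 CPM in line 1 heavy and light, 3.55 and 4.82 in line 2 and 4.25 and 3.65 in line 3, against 1.97 to 3.00 CPM in WT, and all 6 knockout libraries were above every WT library, as for 6.54% of all genes. It rose by 0.69 (SE 0.17) in line 2 and by 0.61 (SE 0.17) in line 3 on the log2 scale (edgeR adjusted p = 0.0025 and 0.0363), and line 1 gave 0.39 (adjusted p = 0.0942), or 0.43 without line 1 heavy (adjusted p = 0.179). Its line 3 call was lost in DESeq2 and without either line 3 library, any WT light library, or WT heavy 1 or 2 (highest edgeR adjusted p 0.424), and its line 2 call without line 2 light (edgeR adjusted p = 0.184).

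TEAD2 lies on chromosome 19 (GRCh38, GENCODE 29), positions 49340595 to 49362457 on the minus strand. DKKL1, on the plus strand from 49361783 to 49375116, overlaps its 5′ end. DKKL1 had 10 and 0 reads in line 1 heavy and light, 1 and 0 in line 2 and 13 and 12 in line 3, against 12, 8 and 8 reads in WT heavy and 11, 16 and 10 in WT light libraries. DKKL1 thus had 0 or 1 read in the 3 libraries with the least TEAD2, and between 8 and 16 reads in the other 9, line 1 heavy included. No source used here states the strand setting of the counting, so reads of the overlapping stretch cannot be told apart between the pair.

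Of the 5 other nearest tested genes, TRPM4, a cation channel, was at 3.84 and 4.38 CPM in line 1 heavy and light, 6.43 and 4.94 in line 2 and 2.64 and 3.09 in line 3, against 2.91 ± 0.61 CPM in WT (SD, n = 6). It rose by 0.97 in line 2 in log2 (SE 0.18, edgeR adjusted p = 0.00022). PPFIA3, a liprin of the presynaptic active zone, rose by 0.34 in line 2 (SE 0.070, edgeR adjusted p = 0.00066). SLC17A7, a vesicular glutamate transporter, was at 0.552 and 0.339 CPM in line 1 heavy and light, 0.536 and 0.154 in line 2 and 0.769 and 0.639 in line 3, against 0.870 ± 0.17 CPM in WT (SD, n = 6). It fell in lines 1 and 2, with log2 fold changes of -0.97 and -1.27 (edgeR adjusted p = 0.0354 and 0.0078). Its line 1 call was lost in DESeq2 and without either line 1 library, WT heavy 1, WT light 2 or WT light 3 (highest edgeR adjusted p 0.323), with -1.21 and an adjusted p of 0.0763 without line 1 heavy. The line 2 call of SLC17A7 was lost without line 2 light (edgeR adjusted p = 0.139), and that of TRPM4 without line 2 heavy (0.0613). C19orf73 and PIH1D1 passed in no line (lowest edgeR adjusted p 0.537 and 0.332).

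Among 12834 genes with a mean of at least 1 log2 CPM, 195 had a Pearson r above 0.95 with TEAD2 over the 12 libraries, on log2(CPM + 0.5), and 55 had an r below -0.95. The genes most like it were PPP1R9A (neurabin-1, an actin-binding scaffold, r = 0.998), PRNP (the prion protein, 0.997), PLAGL1 (a zinc-finger transcription factor, 0.996), MYO10 (a myosin of filopodia, 0.995), CDH11 (a cadherin, 0.993) and C7 (a complement component, 0.993). PPP1R9A was at 20.03 and 0.424 CPM in line 1 heavy and light, 1.33 and 1.47 in line 2 and 42.5 and 38.7 in line 3, against 37.1 to 44.9 CPM in WT. PRNP was at 6.68 and 0.141 CPM in line 1 heavy and light, 0.451 and 0.540 in line 2 and 13.2 and 12.0 in line 3, against 12.5 to 14.3 CPM in WT. Both were low in the same 3 libraries as TEAD2 and about midway in line 1 heavy. The lowest r belonged to VPS39 (-0.980), ANK1 (-0.979) and GRIA4 (-0.979), which were higher in those 3 libraries than in WT. Of the pathway, AJUBA had an r of 0.901, MAP4K4 of 0.900, TNIK of -0.964 and DOCK5 of -0.932, and TEAD1 had 0.690. The other tested members had lower r, with 0.489 for TEAD3, 0.324 for CCN1, 0.113 for TEAD4 and 0.112 for LATS1. Some genes of the lists were near 0, such as SIKE1 (0.040), GADD45A (-0.025) and STRN (-0.0066). The 12 points share 4 sources of cells, so these values describe how lines differ.

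**Figure D5:**
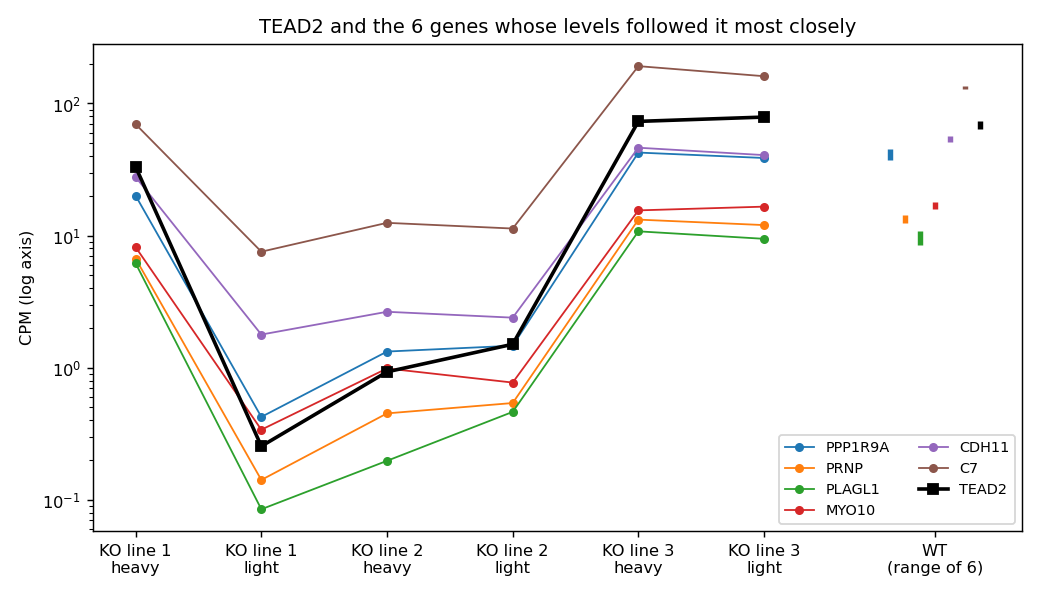
CPM (y axis, log scale) of TEAD2 (black) and the 6 genes with the highest r with it, in the 6 knockout libraries, and the range over the 6 WT libraries as bars at the right. All 7 are low in line 1 light and in line 2, in between in line 1 heavy, and far above line 2 in line 3, where TEAD2 is at 73.2 and 78.9 CPM.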

How the data were processed

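The authors deposited raw counts of reads per gene in 12 columns, each matched to a sample. Per the labels' protocols the libraries were made from poly(A) RNA with a stranded kit. The submitters' processing notes name bcl2fastq 2.19.0, STAR 2.7.0f, Subread 1.6.4 with featureCounts, DESeq2 1.22.1, R 3.5.1 and the build GRCh38.p13. The strand setting and the annotation release are not given. Of the features, 27691 were at 0 in every library.

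The deposited counts were tested in edgeR 4.0.16 (R 4.3.3) with TMM normalisation, filterByExpr on the 4 groups, robust quasi-likelihood fits and Benjamini-Hochberg adjustment over all genes tested, at 0.05. Knockout and WT were compared over both media, with medium as a covariate, and within each. Each line was compared with the 6 WT libraries in 1 fit with line and medium as terms. These fits treat the 2 libraries of a line as independent. CPM came from TMM-scaled libraries. Lengths are the union of exons in GENCODE 29, which placed 36446 features. Count intervals are exact Poisson, at 95%.

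The 10 genes, the lists and the tests were chosen with earlier results of these data known, so counts over a list are descriptions. Named genes are the 10, FMR1, up to 6 per list with the smallest p, the 3 nearest tested genes on each side of TEAD2, and the genes most and least like TEAD2. Alternatives were RLE size factors, no filter, DESeq2 1.42.0, leaving out each library, a block for the replicate number, and counts summed per line. TEAD2 entered the fits of line, of medium and of genotype by medium, but since they hold lines 1 and 2 its values there are not given as tests. Heavy against light medium in WT alone was added after seeing the data. The fits were tested on simulated data. Per the labels, heavy and light knockout libraries of 1 number come from 1 line, and their deviations from the group means correlated at 0.133, 0.703 and 0.722 for lines 1, 2 and 3.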

Additional observations from a re-analysis of the deposited data

Results flagged for a closer look

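TEAD2 differed between the knockout lines under the same contrast with WT. Both libraries of line 1 lay below every WT library, and both of line 3 lay above the WT mean of their medium, with a log2 ratio of the line 1 mean over the line 3 mean of -2.19. Both libraries of line 2 lay below every WT library too, with a log2 ratio of the line 2 mean over the line 3 mean of -5.96. These differences were not tested, because TEAD2 in lines 1 and 2 chose the genes described. The line 1 heavy library lay midway between line 1 light and WT, at 33.1 CPM.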

How the results depend on the processing

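Counts summed per line, which leave 3 libraries against 3, changed the calls over both media most: 0 of the other Hippo genes, 1 of the target genes and 0 of the cofactors passed, against 11, 6 and 2. Of all genes 272 then passed, against 4135. Among the 5 members, 1 passed in light medium with no filter and in DESeq2 (CCN1), 1 in line 1 with RLE size factors (TEAD1) and 1 in line 3 with no filter (CCN1). In line 3 the other Hippo genes called were 1 with RLE, 2 with no filter and 2 in DESeq2, the targets 2 with no filter, and the cofactors 0 in DESeq2. Heavy against light gave 1 member with no filter, TEAD2, whose values in lines 1 and 2 chose the genes, so it is no independent result. Its sign turned in WT libraries alone for TEAD2 (-0.018), CCN1 (-0.026) and TEAD3 (-0.076), and for TEAD3 with RLE (-0.0023) and in DESeq2 (-0.0030). The TEAD2 share of TEAD RNA was 1.02% in line 2, 35.8% in line 3 and 34.2% in WT when not divided by length. The cause was not tested.

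Leaving out each library gave these ranges of calls. Over all genes, calls ranged from 2632 to 5907 over both media and from 4 to 6240 in light medium. The ranges of a line include fits that leave it 1 library, where fewer of all genes passed. Members ranged from 0 to 1 over both media, 0 to 2 in light medium, 0 to 1 in line 1 and 0 to 1 in line 2. Other Hippo genes ranged from 9 to 17 over both media, 5 to 18 in line 1, 12 to 22 in line 2 and 0 to 3 in line 3. Targets ranged from 3 to 9 over both media, 2 to 8 in line 1, 7 to 10 in line 2 and 0 to 1 in line 3. Cofactors ranged from 0 to 1 in line 1, 1 to 2 in line 2 and 0 to 1 in line 3. Log2 values whose sign turned were, in heavy medium, TEAD3 (-0.062 to 0.011), TEAD4 (-0.026 to 0.16) and LATS1 (-0.064 to 0.042). In line 1 this was CCN1 (-0.66 to 0.055), in line 2 CCN1 (-0.37 to 0.060), and in line 3 TEAD1 (-0.013 to 0.083), TEAD2 (-0.24 to 0.47) and TEAD3 (-0.15 to 0.0062). Between the media they were TEAD2 (-0.065 to 0.60), TEAD3 (-0.027 to 0.028) and LATS1 (-0.050 to 0.0050), and for genotype by medium TEAD1 (-0.080 to 0.091), TEAD2 (-0.67 to 5.48) and TEAD4 (-0.088 to 0.12). The TEAD2 values in line 3, between the media and for genotype by medium come from fits that hold the lines that chose the genes, and are descriptions. None of the others passed in any of these fits.

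Over all genes, calls in heavy medium were 18, against 775 with no filter and 829 in DESeq2. In light medium they were 231, against 1351 and 1718. Line 3 had 836, against 1387 with no filter, and the lines differed for 2062 genes, against 3411. Heavy against light had 0, against 219 with no filter, 14 in DESeq2 and 1 in WT alone.

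Replicate numbers did not pair knockout with WT: deviations of same-numbered libraries correlated at -0.160 to -0.019. With the replicate block 0 members passed over both media, in heavy medium, in light medium, between media and for genotype by medium, and 13 other Hippo genes, 6 targets and 2 cofactors passed over both media. All genes called with the block were 4484 over both media, 94 in heavy medium, 153 in light medium and 1 between the media. Depth limits YAP1, WWTR1, LATS2 and CCN2, for which no test was made.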
